A study of Homo sapiens with 12 samples.

Results

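The genes described here are 10 protein-coding genes whose promoters carried an H3K4me3 peak in every analysed library of one BON1 line and in no analysed library of the other. A peak counted when any base of it lay no more than 1 kb from the gene's outermost 5′ end in GRCh37 (hg19). Of 20136 protein-coding genes, 170 (0.844%) met this rule for the HA-Bcl-xL line and 50 (0.248%) for the control line. PPP1R9A, RAB29, ZNRF3 and TMA16 were the 4 listed genes called in the HA-Bcl-xL line. LPP, GPR137C, CMSS1, ABHD17A, SMYD3 and PDGFA were the 6 called in the control line. The genes were chosen on these calls, so the calls themselves are given as a description, without a test.

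BON1 is a human pancreatic neuroendocrine tumor cell line. One line overexpressed HA-tagged Bcl-xL, an anti-apoptotic BCL2 family protein, and the other was its pQ control. The names of both lines carry TGL, which the labels do not explain, and both were grown with puromycin. The labels also do not say whether either line is a single clone. CUT&RUN, in which an antibody directs a nuclease to chromatin and the released fragments are sequenced, was performed from 500000 cells per condition with an antibody to H3K4me3 or with a rabbit anti-mouse IgG. Peak lists were used for 3 control and 2 HA-Bcl-xL libraries with the H3K4me3 antibody, and for 3 IgG libraries per line. The first HA-Bcl-xL replicate with this antibody is not analysed here. The labels do not say whether replicates came from separate cultures.

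H3K4me3 is deposited by SET1 and MLL family methyltransferases and marks nucleosomes on either side of active transcription start sites. It is usually strong at CpG-rich promoters, and it can also sit at internal start sites of a gene. A peak caller reports such a site when the fragments piled up there exceed the local background, so a site near that limit can be listed in one library and missed in another.

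The H3K4me3 lists held 10247 to 17711 peaks each. The control IgG lists held 1674 to 2113 peaks and the HA-Bcl-xL IgG lists 244 to 268. The median number of fragments at a peak summit, solved from each peak's fold enrichment and −log10 p, was 12, 10 and 9 for control H3K4me3 replicates 1 to 3. It was 11 for replicate 2 and 10 for replicate 3 of HA-Bcl-xL. The lowest background expected at any summit of a list was 0.0659, 0.0705 and 0.0478 fragments in the control and 0.0692 and 0.0681 in the HA-Bcl-xL libraries. Control replicate 3 had both the lowest such background and the shortest list, and the read depths themselves are unknown. A promoter peak in all 5 libraries was found for 21.3% of genes, and none in any of them for 51.8%. Of 6 neuroendocrine marker genes, CHGB had a promoter peak in all 5 libraries, and INSM1 had one in all 5 within 2.5 kb but none within 1 kb. CHGA had one in 1 control library, SYP in 1 library of each line, and ENO2 and NCAM1 in none. The 5 lymphoid and fibroblast marker genes measured had 0 peaks within 1 kb. Within 2.5 kb, ENO2 and the fibroblast gene COL1A1 each had a peak in 1 HA-Bcl-xL library and no control library. The count of 170 became 613, 252 and 218 without control replicates 1 to 3, 466 without HA-Bcl-xL replicate 2 and 509 without HA-Bcl-xL replicate 3. The count of 50 became 79, 130 and 170 without control replicates 1 to 3, and 233 and 154 without HA-Bcl-xL replicates 2 and 3. Leaving a library out can only add genes to these counts. All 10 listed genes met the rule with any 1 library left out, which the rule itself ensures.

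The reference sequence under the peaks is shown for 9 of the 10 genes, since the position of the peak decides how each call reads. The stretches run 5′ to 3′ on the strand of the gene and leave out annotated untranslated regions, so the part of a peak that lies over a 5′ UTR is missing. The GPR137C line begins at -1140, where the part common to its 3 control peaks begins, and leaves out the bases of 2 of these peaks further upstream. The TMA16 peaks nearer the 5′ end and the upstream ABHD17A peak of control replicate 2 are not printed. For PDGFA all peak bases lay in a UTR. In the lines for RAB29, ZNRF3, TMA16, LPP, CMSS1, ABHD17A and SMYD3, capitals mark the bases that every peak of the line at that place had in common. In the lines for PPP1R9A and GPR137C, capitals mark the bases within 1 kb of the 5′ end, which decided the call.
RAB29 (chr1:205744611-205744636, minus strand): ttaCCGCGAGGAAAGCTGGGAAATGT
ZNRF3 (chr22:29280332-29280413, plus strand): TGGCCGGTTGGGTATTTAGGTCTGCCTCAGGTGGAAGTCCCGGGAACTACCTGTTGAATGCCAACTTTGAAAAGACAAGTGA
TMA16 (chr4:164416345-164416473, plus strand): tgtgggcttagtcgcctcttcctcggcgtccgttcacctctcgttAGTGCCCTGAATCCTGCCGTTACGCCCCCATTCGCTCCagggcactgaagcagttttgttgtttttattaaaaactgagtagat
LPP (chr3:187871493-187871659, plus strand): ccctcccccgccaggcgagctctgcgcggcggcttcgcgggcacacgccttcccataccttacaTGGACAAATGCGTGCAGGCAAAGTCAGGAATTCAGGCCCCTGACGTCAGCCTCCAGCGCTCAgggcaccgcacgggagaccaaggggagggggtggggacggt
CMSS1 upstream (chr3:99536388-99536512, plus strand): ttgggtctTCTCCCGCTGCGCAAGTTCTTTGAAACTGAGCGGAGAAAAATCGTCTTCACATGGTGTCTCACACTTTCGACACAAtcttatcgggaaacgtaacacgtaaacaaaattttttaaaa
CMSS1 at the start (chr3:99536621-99536680, plus strand): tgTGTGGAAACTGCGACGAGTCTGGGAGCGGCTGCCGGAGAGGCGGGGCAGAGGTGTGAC
ABHD17A (chr19:1884795-1884945, minus strand): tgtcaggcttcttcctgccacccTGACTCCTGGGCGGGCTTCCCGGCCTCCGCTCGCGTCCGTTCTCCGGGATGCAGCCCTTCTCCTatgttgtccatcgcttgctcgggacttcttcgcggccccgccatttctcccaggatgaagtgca
SMYD3 (chr1:246670615-246670699, minus strand): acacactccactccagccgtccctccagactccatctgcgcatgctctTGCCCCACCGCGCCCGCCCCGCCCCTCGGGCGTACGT
PPP1R9A (chr7:94537498-94537590, plus strand): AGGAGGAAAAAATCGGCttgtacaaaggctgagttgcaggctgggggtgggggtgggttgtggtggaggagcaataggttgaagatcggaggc
GPR137C (chr14:53018414-53018579, plus strand): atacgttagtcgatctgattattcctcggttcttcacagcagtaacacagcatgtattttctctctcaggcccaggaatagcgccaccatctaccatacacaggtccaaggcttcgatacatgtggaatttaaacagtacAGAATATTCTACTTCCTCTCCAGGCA

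The 10 genes differed in where the peaks of the other line lay. For RAB29, ZNRF3, TMA16, LPP, CMSS1 and SMYD3, the other line was without any peak inside 10 kb of the 5′ end. For ABHD17A, the other line had its nearest peaks between 2.5 and 10 kb away. For PPP1R9A, GPR137C and PDGFA, a peak of the other line overlapped the same site, and its edge nearest to the 5′ end lay just beyond the 1 kb limit. This held in every library of the other line for PPP1R9A and GPR137C, and in 1 of 2 for PDGFA. No IgG library had a peak within 10 kb of the 5′ end of any of the 10 genes, and the nearest IgG peak lay 12.5 kb away, with far fewer IgG peaks listed for the HA-Bcl-xL line. The IgG lists held only 244 to 2113 peaks each. The share of all genes with an IgG peak in this window was not computed, so nothing is read from its absence here. Counted from any transcript start, SMYD3 had a peak in 1 IgG library within 2.5 kb and within 10 kb, and CMSS1 had one in 1 IgG library within 10 kb. Distances below are in bases from the first base of the gene, with minus signs for positions upstream.

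**Figure D1:**
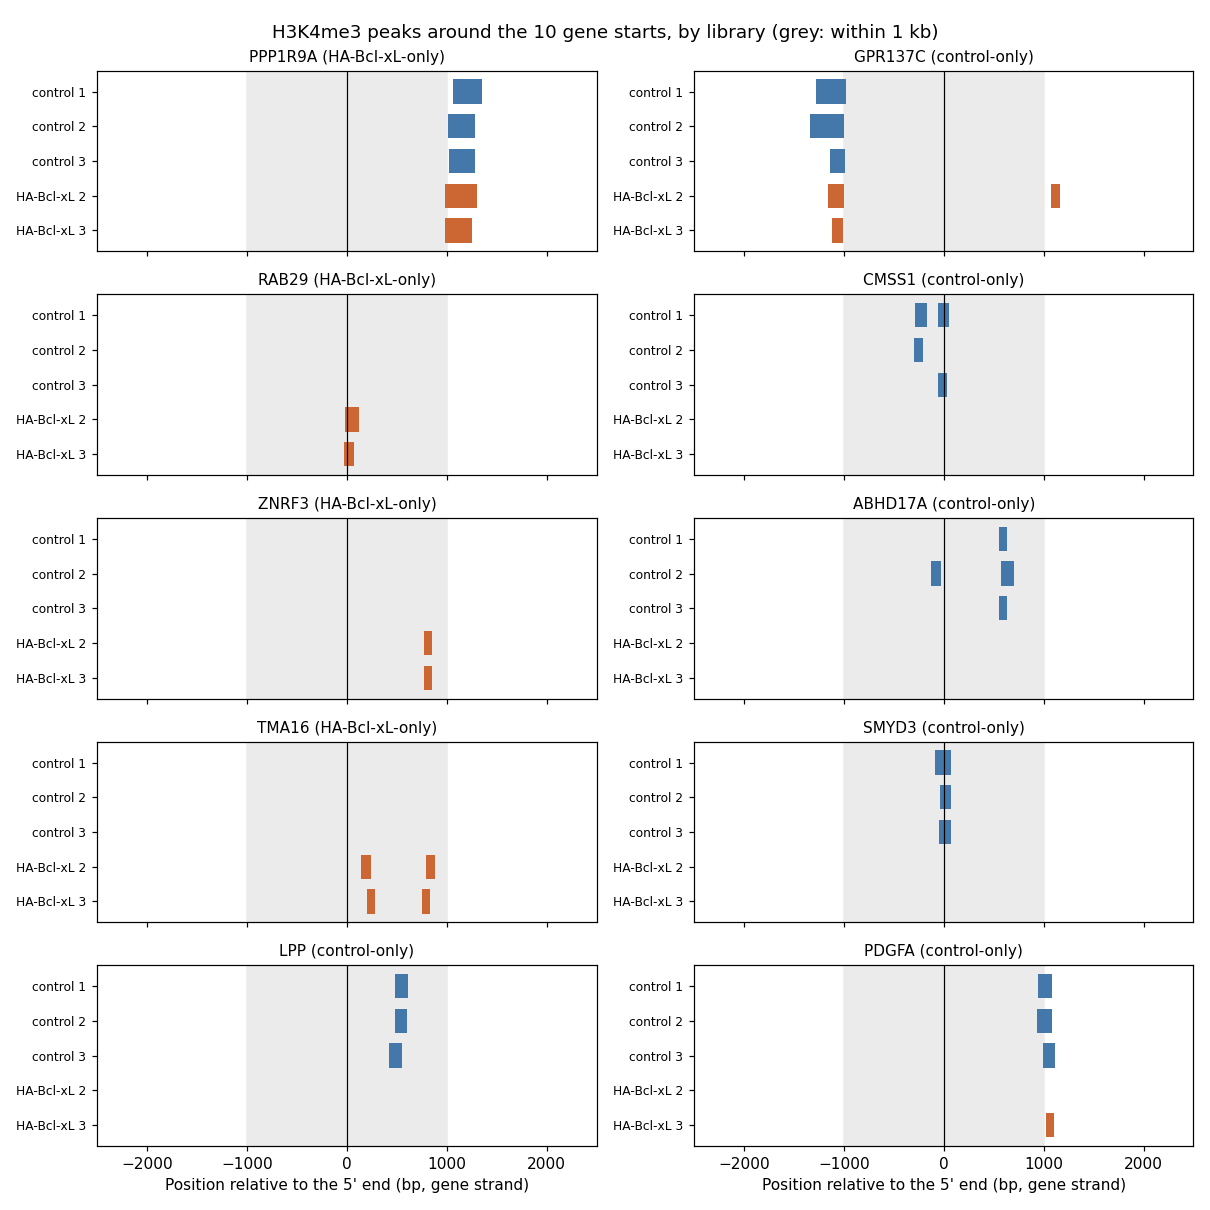
H3K4me3 peaks within 2.5 kb of the 5′ end of each gene, with the position on the gene strand on the x axis and 1 row per library (control in blue, HA-Bcl-xL in orange). The grey band is the 1 kb window of the rule. PPP1R9A and GPR137C have peaks in all 5 libraries at the edge of the band, while RAB29, ZNRF3, TMA16, LPP, CMSS1, ABHD17A and SMYD3 have peaks of 1 line alone in the range drawn.

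RAB29 encodes a small GTPase of the Golgi and endolysosomal membranes that recruits the kinase LRRK2. The gene starts at 205744610 on chromosome 1 (minus strand), and its 9 annotated transcripts all start within 2.5 kb of that base. HA-Bcl-xL replicate 2 had a peak from -23 to 120, with 9 fragments at the summit and a within-list percentile rank of 70.7 by the authors' −log10 p. HA-Bcl-xL replicate 3 had a peak from -26 to 69, with 11 fragments and a rank of 86.2. Both peaks lay over the 5′ end and the start of the 5′ UTR. The nearest control peaks were 25.1, 25.2 and 26.5 kb away in replicates 1 to 3, so the lines did not overlap here. A lncRNA gene without a symbol starts 77 bp away on the other strand, and the same peaks put it in the HA-Bcl-xL-only pattern, counting 2 HA-Bcl-xL libraries and 0 control libraries.

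ZNRF3 is a membrane-bound ubiquitin ligase that removes Wnt receptors from the cell surface and is held in check by R-spondins. It starts at 29279560 on chromosome 22, with no other annotated start within 2.5 kb. The peak covered 772 to 853 in both HA-Bcl-xL libraries, in an intron. It held 13 fragments with a rank of 85.2 in replicate 2, and 9 fragments with a rank of 62.4 in replicate 3. Both ends agreed to the base, as did those of the ABHD17A intron peaks in control replicates 1 and 3. Among overlapping peaks of all widths in any 2 H3K4me3 libraries, both ends were the same for 0.965 to 1.5% of pairs over the 10 library pairs. The nearest control peaks were 83.9, 83.9 and 84.0 kb away.

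TMA16 encodes a protein that binds precursors of the large ribosomal subunit. TMA16 starts at 164415594 on chromosome 4, and it was the one HA-Bcl-xL-called gene with 2 peaks in each library. In replicate 2 they covered 138 to 243 (9 fragments, rank 52.0) and 796 to 879 (10 fragments, rank 61.8). In replicate 3 they covered 197 to 277 (6 fragments, rank 20.4) and 751 to 833 (12 fragments, rank 82.4). The peaks nearer the 5′ end reached an annotated 5′ UTR and the other peaks lay in an intron. The nearest control peaks were 327, 39.9 and 327 kb away in replicates 1 to 3.

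LPP, a LIM domain protein of focal adhesions in the zyxin family, had the highest mean rank of the control-called genes, 75.5 ± 4.97 (SD, n = 3). From the LPP start at 187871072 on chromosome 3, the peak covered 482 to 605 in control replicate 1, 485 to 595 in replicate 2 and 421 to 546 in replicate 3. The summits held 12, 10 and 9 fragments, and the ranks were 80.3, 70.4 and 75.8. The peaks of replicates 1 and 2 reached the UTR of other LPP transcripts, and the replicate 3 peak lay in an intron. They also lay in an exon of LPP-AS2, a lncRNA gene on the other strand. In the HA-Bcl-xL libraries the nearest peaks were 407 and 242 kb away. The bases common to the 3 control peaks held the palindrome TGACGTCA at positions 525 to 532, a search chosen after the sequence was seen. The same window, 421 to 587, held it in 0.189% of all protein-coding genes, and none of the other member stretches held it.

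SMYD3 encodes a lysine methyltransferase with SET and MYND domains. From its start at 246670614 on chromosome 1 (minus strand), the control peaks covered -85 to 72, -37 to 72 and -43 to 68 in replicates 1 to 3, over the 5′ end. They held 7, 6 and 8 fragments at the summit, with ranks of 39.6, 36.2 and 77.3. The rank was thus highest in replicate 3, the shortest list, and the ranks of the 3 libraries spanned a wide range. Both HA-Bcl-xL libraries had their nearest peak 59.4 kb away. When each list was shortened to its 10247 strongest peaks, SMYD3 kept its peak in 2 of 3 control libraries.

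CMSS1, the human counterpart of a yeast protein linked to the small ribosomal subunit, showed peaks at 2 places. CMSS1 starts at 99536681 on chromosome 3. Control replicate 1 had a peak at -285 to -169 (8 fragments, rank 38.9) and another at -60 to 49 (10 fragments, rank 60.9). Control replicate 2 had the upstream peak alone, at -293 to -210 (7 fragments, rank 40.3). Control replicate 3 had the peak at the start alone, at -58 to 31 (9 fragments, rank 69.3). Replicates 2 and 3 therefore met the rule without a base in common. The nearest HA-Bcl-xL peaks were 583 and 38.3 kb away in replicates 2 and 3.

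ABHD17A encodes a serine hydrolase that removes palmitate from membrane proteins such as N-Ras. The start of ABHD17A is at 1885495 on chromosome 19 (minus strand). The control peaks covered 550 to 636 in replicate 1, 573 to 700 in replicate 2 and 550 to 636 in replicate 3, in an intron. They held 11, 7 and 8 fragments, with ranks of 70.3, 26.4 and 50.2. Replicate 2 had another peak at -127 to -30 (8 fragments, rank 42.1). Beyond the 3′ end of the gene, all 5 H3K4me3 libraries had a peak between 9597 and 10120, close to a lncRNA gene on the same strand. The HA-Bcl-xL peaks there started 9811 and 9597 bases from the ABHD17A 5′ end, so at 10 kb the gene had a peak in all 5 libraries.

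PPP1R9A encodes neurabin, an actin-binding scaffold that brings protein phosphatase 1 to synapses. It had the highest mean rank of the HA-Bcl-xL-called genes, 93.1 ± 3.08 (SD, n = 2). The PPP1R9A start is at 94536514 on chromosome 7. The peak covered 984 to 1304 in HA-Bcl-xL replicate 2 and 984 to 1253 in replicate 3, so 17 bases lay within the 1 kb window. It covered 1058 to 1353, 1009 to 1279 and 1021 to 1279 in control replicates 1 to 3, so it missed the window by 58, 9 and 21 bases. The summits held 22 and 18 fragments in the HA-Bcl-xL and 24, 23 and 17 in the control libraries, and all 5 lay beyond 1 kb. The ranks were 95.3 and 90.9 in HA-Bcl-xL and 94.5, 97.7 and 93.8 in control libraries. A PPP1R9A transcript starts at 1077, inside all 5 peaks. Counted from any transcript start, PPP1R9A had a promoter peak in all 5 libraries.

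GPR137C encodes a multi-pass membrane protein. It starts at 53019554 on chromosome 14, and TXNDC16, a thioredoxin domain gene, starts 314 bp away on the other strand. The peak ended at -975, -997 and -992 in control replicates 1 to 3, inside the limit by 25, 3 and 8 bases. It ended at -1003 and -1005 in HA-Bcl-xL replicates 2 and 3, outside it by 3 and 5 bases. The summits held 20, 15 and 10 fragments in the control libraries, and 26 and 23 in the HA-Bcl-xL libraries. The ranks were 82.9, 68.9 and 33.6 in control and 95.6 and 94.0 in HA-Bcl-xL libraries. All 5 peaks lay in a TXNDC16 intron, and TXNDC16 had a promoter peak in all 3 control and both HA-Bcl-xL libraries. HA-Bcl-xL replicate 2 had another peak on the GPR137C side, at 1076 to 1158 (12 fragments, rank 37.4), in an intron.

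PDGFA encodes the A chain of platelet-derived growth factor, a secreted ligand of PDGF receptors. The PDGFA start is at 559933 on chromosome 7 (minus strand). The control peaks covered 939 to 1084, 938 to 1084 and 998 to 1114 in replicates 1 to 3, with 12, 12 and 9 fragments and ranks of 53.0, 64.5 and 46.4. Control replicate 3 met the limit by 2 bases. HA-Bcl-xL replicate 3 had a peak at 1023 to 1099 with 9 fragments and a rank of 27.3, 23 bases outside the limit. HA-Bcl-xL replicate 2 had its nearest peak 206 kb away. All of these peaks lay in the 5′ UTR of PDGFA transcripts that start at 450 or 902. Within 1 kb of any transcript start, all 3 control libraries and 1 HA-Bcl-xL library had a PDGFA peak.

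**Figure D2:**
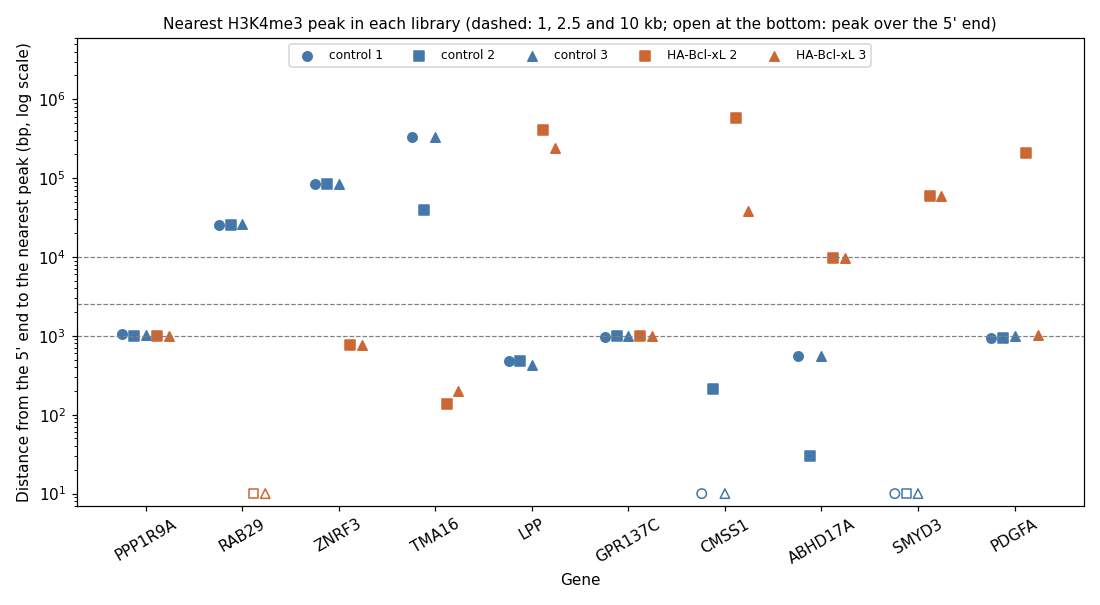
Distance from the 5′ end of each gene to the nearest H3K4me3 peak edge in each of the 5 libraries, on a log scale. Open symbols at the bottom stand for peaks over the 5′ end, and dashed lines mark 1, 2.5 and 10 kb. The other line's values lie just above 1 kb for PPP1R9A, for GPR137C and for 1 PDGFA library, and reach 583 kb for CMSS1.

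Beyond these 3 genes, other one-line calls also had a peak edge of the other line just past the 1 kb limit, which need not be the same site. Among the 170 HA-Bcl-xL-only genes, 18 (10.6%) had a control peak edge no more than 100 bp beyond the limit, as had 1 of the 4 listed genes. Among the 50 control-only genes, 5 (10.0%) had an HA-Bcl-xL peak edge that close, and 2 of the 6 listed genes were among them. An own-line promoter peak overlapped a peak of the other line for 8 of the 170 (4.71%), among them 1 of the 4 listed genes. It did so for 5 of the 50 (10.0%), among them 2 of the 6 listed genes.

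Wider windows were then applied to the same genes. Within 2.5 kb of the 5′ end, RAB29, ZNRF3 and TMA16 kept the HA-Bcl-xL pattern, and LPP, CMSS1, ABHD17A and SMYD3 kept the control pattern, 7 of the 10 genes. Of the whole sets, 125 of 170 (73.5%) and 37 of 50 (74.0%) kept theirs. In this window 0.824% of all genes were HA-Bcl-xL-only and 0.248% control-only. Within 10 kb, ABHD17A dropped out and 6 of the 10 genes remained, beside 111 of 170 (65.3%) and 32 of 50 (64.0%), and the shares of all genes were 0.904% and 0.243%.

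Counting from any annotated transcript start gave similar numbers. Within 1 kb of any start, the same 7 genes kept their pattern, beside 128 of 170 (75.3%) and 39 of 50 (78.0%), with 0.899% and 0.238% of all genes called. In this window GPR137C gained the HA-Bcl-xL replicate 2 peak, and PDGFA that of replicate 3. Within 2.5 kb of any start, 7 genes kept it, beside 113 of 170 (66.5%) and 36 of 50 (72.0%), with 0.909% and 0.248% of all genes called. Within 10 kb of any start, RAB29, ZNRF3, TMA16, LPP, CMSS1 and SMYD3 kept it, beside 94 of 170 (55.3%) and 31 of 50 (62.0%), with 0.909% and 0.233% called. The background shares stayed close to those at 1 kb. By direction, 3 of the 4 listed HA-Bcl-xL-called genes and 3 of the 6 control-called genes kept the pattern within 10 kb of any start. With so few listed genes, nothing is read from how these counts compare with the whole sets.

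**Figure D3:**
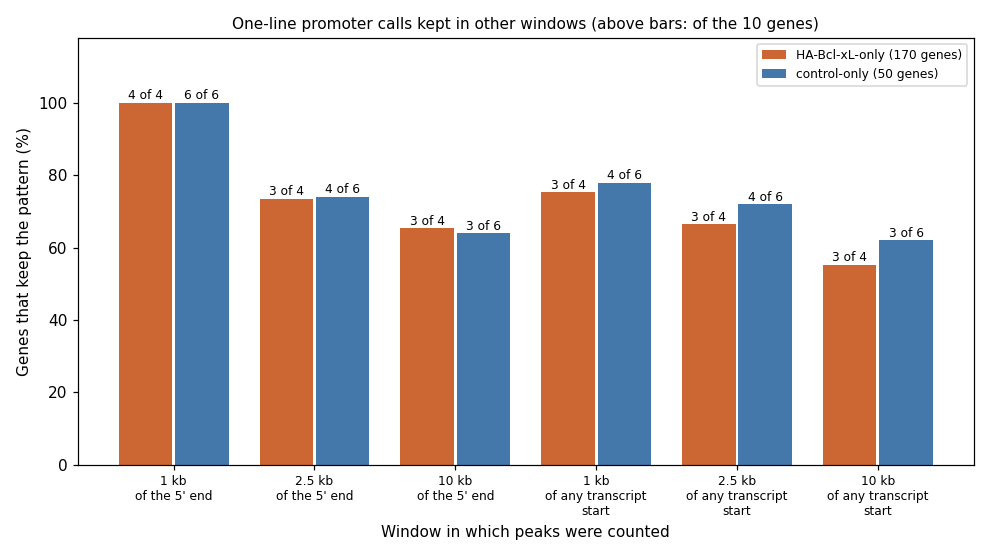
Share of the 170 HA-Bcl-xL-only genes (orange) and the 50 control-only genes (blue) that keep their pattern when peaks are counted in the window on the x axis, with the number of the 10 listed genes above each bar. The shares fall from 100% by construction to 55.3% and 62.0% within 10 kb of any transcript start.

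The 30 promoter peaks behind the 10 calls were 81 to 338 bp wide, with a median of 111.5 bp, beside medians of 112 to 128 bp over the whole H3K4me3 lists. They held 6 to 22 fragments at the summit, with a median of 9.5, beside list medians of 9 to 12. Their median rank within the lists was 63.45. Their −log10 q ran from 3.92 to 20.4, and 3 of the 30 were under 5. With peaks under 5 left out, GPR137C alone of the 10 lost its pattern, since control replicate 3 no longer had the peak. Over all protein-coding genes, 168 were then HA-Bcl-xL-only and 42 control-only, beside 170 and 50 in the main count. Requiring the summit within 1 kb removed PPP1R9A, GPR137C and PDGFA, and the counts over all genes were 180 and 50. The count of 180 includes genes new to the pattern. Each H3K4me3 list contained peaks called on as few as 3 fragments. The read depths are unknown, so a missing call was not read as absence of the mark.

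By mean rank, the listed genes held places 1, 2, 3 and 5 among the 170 and places 1, 2, 8, 9, 11 and 13 among the 50. The mean was taken over the highest-ranked promoter peak of each library. For CMSS1 and ABHD17A these peaks lay at different places. The genes most like them, those with the same library pattern and the 10 highest mean ranks, were TGFBR2, TBX3, PARVA, SERPINI1, BSN and ABTB1 on the HA-Bcl-xL side, with mean ranks of 68.0 to 73.7. On the control side they were ZIK1, ZNF416, RPS20, ETNK1, MAP1B and GPBP1, with 54.6 to 61.6. Among these, TGFBR2, SERPINI1, ETNK1 and GPBP1 had an other-line peak edge at 1036, 1090, 1099 and 1027 bases, also within 100 bp of the limit. The median mean rank was 38.6 over the 170 genes and 42.0 over the 50. Ranks describe a peak within its own list and show no change between lists.

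**Figure D4:**
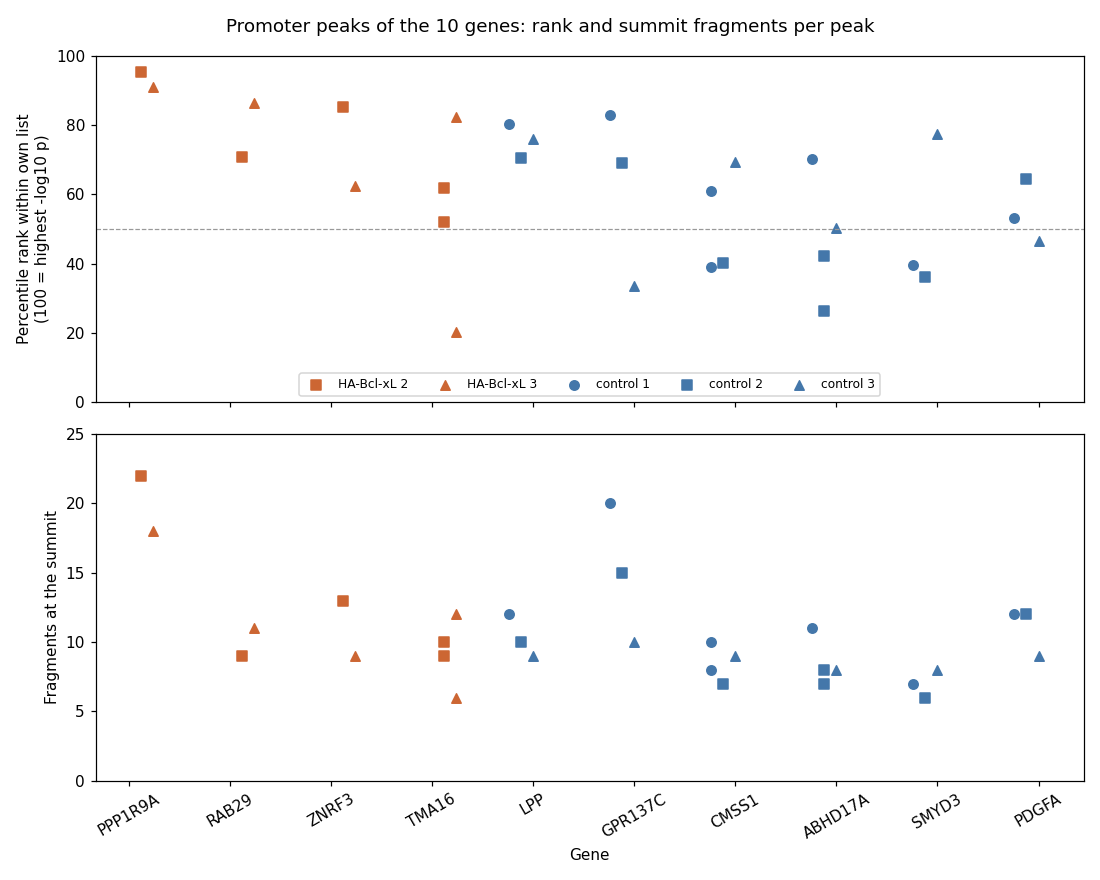
Each of the 30 promoter peaks by gene and library, with the percentile rank within its own list above and the number of fragments at the summit below. PPP1R9A has the highest ranks, 95.3 and 90.9, and the SMYD3 peaks of control replicates 1 and 2 and 1 TMA16 peak lie below the dashed line at the middle of their lists, as do peaks of GPR137C, CMSS1, ABHD17A and PDGFA.

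The promoters of the 10 genes were of mixed composition. In the 300 bases from 250 before to 50 after the 5′ end, GC content ran from 39.3% (PPP1R9A) to 74.7% (ZNRF3), with a median of 62.2% against 60.3% over all protein-coding genes. CpG dinucleotides numbered 3 in PPP1R9A, 12 in RAB29, 13 in LPP and 38 in ZNRF3, with a median of 22.5 against 18 over all genes. The GC box core GGGCGG, searched on both strands, was in 7 of the 10 promoters and in 52.2% of all. CCAAT was in 3 of 10 and 35.8%, and TATAAA in 1 of 10, PPP1R9A, and 10.9%.

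Relatives and partners were listed for 8 of the 10 genes, all but TMA16 and CMSS1, and were examined in the same way. Of these 35 genes, 6 had a promoter peak in all 5 H3K4me3 libraries, 18 in none and 11 in some, beside 21.3% of all genes with one in all 5 and 51.8% with none. None of the 35 met the one-line rule within 1 kb of the 5′ end, which 0.844% of all genes met for HA-Bcl-xL and 0.248% for control, so that nothing is read from this count. RNF43, the paralog of ZNRF3, had one in all 5, and LGR4, an R-spondin receptor, in both HA-Bcl-xL libraries and 1 of 3 control libraries. LGR5, LGR6 and RSPO1 to RSPO4 had none. Among PDGF genes, PDGFC had one in 1 of 3 control libraries and PDGFD in 2 of 3, each with both HA-Bcl-xL libraries, and PDGFB and the receptor genes PDGFRA and PDGFRB had none. LRRK2, RAB32 and RAB38, the partner and closest relatives of RAB29, had none.

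The relatives of LPP, SMYD3, GPR137C, PPP1R9A and ABHD17A were likewise counted within 1 kb. In the zyxin family, ZYX and AJUBA had a promoter peak in all 5 libraries, and TRIP6, LIMD1 and WTIP in none. SMYD2 and SMYD5 had one in all 5 and SMYD4 in 1 library of each line. SMYD1, a muscle gene, had one in 1 IgG library and in no H3K4me3 library. GPR137 had one in all 5 and GPR137B in none. PPP1CB, a catalytic subunit of protein phosphatase 1, had one in 2 of 3 control libraries and neither HA-Bcl-xL library within 1 kb, and in all 5 within 2.5 kb. PPP1CC, giving control before HA-Bcl-xL, had one in 1 of 3 and 2 of 2, PPP1CA in 0 of 3 and 1 of 2, and PPP1R9B in 2 of 3 and 1 of 2. Among depalmitoylase genes, ABHD17B had one in 3 of 3 and 1 of 2, LYPLA1 and LYPLA2 in 2 of 3 and 2 of 2, and ABHD17C in none. Counted from any transcript start instead, LIMD1 had one in 1 of 3 and 2 of 2. PPP1CA then had one in 0 of 3 and 2 of 2, the HA-Bcl-xL-only pattern, beside 0.899% of all genes within 1 kb of any start.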

How the data were processed

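The deposited files used were 11 narrowPeak lists for 12 labelled samples, each of a single library, so the calling was not done on pooled replicates. The submitters' processing notes name bcl2fastq 2.20, Trimmomatic 0.36, Bowtie2 2.2.9, MACS2 2.1.1 and deepTools 3.5.1, and the build hg19. The use of a control track, duplicate treatment and settings are not given in the sources used here. Each list gives, per peak, the authors' deposited score, fold enrichment, −log10 p, −log10 q and summit offset, which served to describe, rank or filter peaks within a list.

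Autosomes (1 to 22), X and Y were kept, with GRCh37 and GENCODE release 44 lifted to it. Of 20163 protein-coding gene records, 27 repeated a symbol and were dropped. A peak was present with at least 1 bp in the window. Percentile ranks follow the deposited −log10 p, with 100 the highest. Fragments at the summit were solved from fold = (n + 1) / (background + 1) and p as the Poisson probability of more than n, within 0.0001 in −log10 p, which gave 1 whole number for all 30 promoter peaks. The 10 genes, the lists of relatives and markers and the naming rule (the 10 genes, the 10 highest mean ranks per direction, listed relatives, genes starting within 10 kb) were chosen with earlier results of these data known. Of the 6 markers of other cells, 5 matched the annotation. Python 3.11.15, pandas 2.3.3, numpy 2.4.6, scipy 1.17.1 and matplotlib 3.10.9 were used. No test between groups was made, since the genes were chosen on that contrast.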

Additional observations from a re-analysis of the deposited data

How the results depend on the processing

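No paired analysis was possible because the result comes from no test. Of the 10 genes, 10 met the rule as reported, 7 within 2.5 kb and 6 within 10 kb of the 5′ end, 7 within 1 or 2.5 kb of any transcript start and 7 with the summit within 1 kb. The count was 9 with a −log10 q of at least 5 or equal list lengths, and 10 without peaks overlapping IgG peaks or with any 1 library left out. No IgG peak lay within 10 kb of a listed 5′ end, so the IgG filter could not lower the count. Leaving a library out cannot break the rule either. Over all genes, HA-Bcl-xL-only and control-only counts were 180 and 50 by summit, 168 and 42 by −log10 q, and 171 and 50 without IgG-overlapping peaks. With equal list lengths the control-only count went from 50 to 79, and the HA-Bcl-xL-only count was 156. With 1 library left out the counts ran from 79 to 233 and from 218 to 613, which follows from fewer lists having to meet the rule. Of 80 values of other-line libraries with a promoter peak, recomputed per gene under the other settings, 13 rose above 0, all for PPP1R9A, GPR137C, PDGFA and ABHD17A. The settings by summit, −log10 q, equal list lengths and IgG overlap only remove peaks, so their values were bound to stay at 0. All 13 came from the wider or any-start windows, and the total of 80 includes values that could not change. Depth limits the reading of missing calls, since the 30 peaks held a median of 9.5 fragments, and PCR copies among fragments cannot be told from separate molecules here.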
